A study of Homo sapiens with 21 samples.

Results

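BT474 cells given 10 µg/mL trastuzumab for 3 days (3 libraries) were compared with untreated BT474 cells (3 libraries), across all genes, to describe the response to the single antibody. These 6 of the 21 RNA libraries of the series carry the comparison, and 17650 of the 37355 genes in the count table had enough reads to be tested. BT474 is a human luminal breast cancer cell line with amplified ERBB2, the gene of the receptor HER2, and the labels give its sensitivity to HER2 antibodies as sensitive. Trastuzumab is a therapeutic antibody that binds the part of HER2 next to the membrane. A further group of BT474 cells (3 libraries) had received 10 µg/mL trastuzumab and 10 µg/mL pertuzumab, an antibody that blocks HER2 dimerization, for 3 days. The other 12 libraries come from 4 antibody-resistant pools derived from BT474. They entered the estimate of the spread between replicates, the filter on low counts and the scaling. A gene could thus be tested through its level in the pools. All 3 BT474 groups share the same parental line, which is 1 line, and the treatment is their labelled difference. The labels do not say whether replicates were separate cultures, so each p measures only the spread between these libraries.

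HER2 has no known ligand of its own and signals in dimers, above all with HER3, through several routes. One runs through PI3-kinase and AKT, which promotes growth and lipid synthesis and keeps FOXO transcription factors out of the nucleus. The other runs through RAS and ERK, which drives ETS and AP-1 factors and induces its own feedback inhibitors. In HER2-amplified breast cancer cells trastuzumab is known to slow growth mainly by arrest in the G1 phase of the cell cycle.

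Total counts were 20280460 to 20878152 in the trastuzumab libraries and 19516112 to 21746391 in the untreated libraries. Mitochondrial transcripts took 33.3%, 21.5% and 19.9% of counts in trastuzumab replicates 1, 2 and 3, against 24.5%, 19.9% and 18.2% in untreated replicates 1, 2 and 3. Replicate 1 stood apart in both groups: across genes, the correlation of its departure from the group's average with GC content was r = 0.379 with trastuzumab and 0.691 untreated, against -0.624 to -0.123 in the other 4 libraries. The part of GC content in the results was not tested beyond a fit with a correction for it. The summed level of 9 luminal epithelial markers was 4096 to 4655 CPM (counts scaled to the same normalized library total) with trastuzumab and 4801 to 5708 CPM untreated, and all 9 were present. The sums over 8 fibroblast, 7 endothelial and 6 immune marker genes lay at 20.6 to 23.7, 7.91 to 9.13 and 0.538 to 1.40 CPM with trastuzumab, and at 25.9 to 46.7, 9.72 to 18.6 and 0.545 to 0.621 CPM untreated. Of these markers 2, 2 and 1 had no read in any of the 6 libraries. Each of the 3 sums came mostly from 1 gene. These were COL1A1 (20.3 to 46.2 CPM over the 6 libraries), VWF (7.46 to 18.2 CPM) and LYZ (0.362 to 1.29 CPM). None of the luminal, fibroblast, endothelial or immune markers that could be tested passed in edgeR, against 5 at an unadjusted p under 0.05 and none in DESeq2. With the replicate number as a block, 1 luminal marker rose, and 3 luminal, 1 fibroblast and 1 endothelial marker fell, and the counts were the same with a GC correction.

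After 3 days of trastuzumab 654 genes rose (3.71% of the genes tested) and 667 fell (3.78%), at an adjusted p under 0.05 in edgeR's quasi-likelihood test, 7.48% in all. The changes were mostly small, with a median of 1.56-fold among the rises and 1.58-fold among the falls. At least 2-fold rises numbered 148 and at least 2-fold falls 129, and at least 4-fold changes 8 in each direction. The median log2 fold change of all tested genes was -0.02. The risen genes together took 3.39% of counts with trastuzumab and 2.34% untreated, and the fallen genes 4.02% with trastuzumab and 6.15% untreated. Of the 1321 genes, 1309 had no overlap between the 3 trastuzumab and the 3 untreated libraries, a property of 24.7% of all tested genes.

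Same-numbered replicates of both groups deviated together, although replicates 2 and 3 did so across numbers too. With the replicate number as a block 2025 genes rose (11.5%) and 2604 fell (14.8%), among them all 654 rises and all 667 falls of the fit without the block. Single libraries weighed on these counts. The rises numbered 280 without trastuzumab replicate 3, 309 without untreated replicate 2 and 427 without untreated replicate 3. The falls numbered 317 without trastuzumab replicate 3, 350 without untreated replicate 2, 415 without trastuzumab replicate 2 and 423 without trastuzumab replicate 1. With each of the 6 libraries left out in turn, 210 rises and 247 falls passed every time. The counts of each gene list below are to be read beside the shares over all tested genes. These were 3.71% risen and 3.78% fallen, or 11.5% and 14.8% with the block. Every list was chosen with earlier results of these data known, so no list's count or direction is independent evidence.

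**Figure D1:**
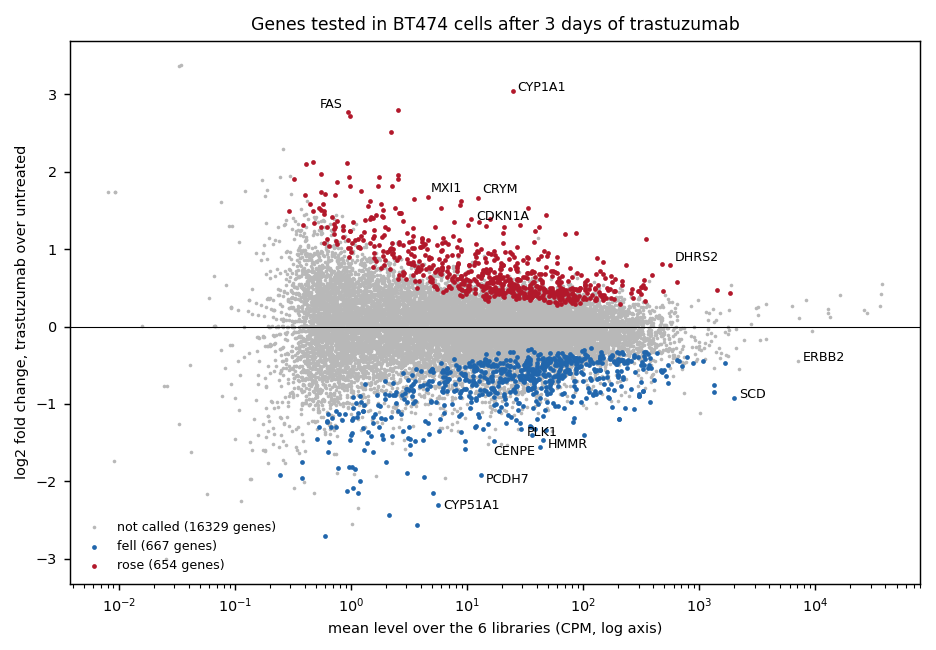
Log2 fold change of trastuzumab over untreated (vertical axis) against the mean level over the 6 libraries in CPM (horizontal log axis), 1 point per tested gene, with 654 risen genes in red, 667 fallen genes in blue and the others in grey. CYP1A1 has the largest rise among genes of at least 5 CPM and CYP51A1 the largest fall, while ERBB2, far to the right, is grey.

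No HER receptor gene passed the test. ERBB2, the antibody's target, had 6521, 6206 and 5296 CPM in trastuzumab replicates 1, 2 and 3, against 10347, 6673 and 7532 CPM in untreated replicates 1, 2 and 3. The groups did not overlap, but the untreated values spread widely, and the log2 fold change of -0.45 ± 0.24 (standard error, as for all changes given with ±) had an adjusted p of 0.282. ERBB2 passed with the replicate block (adjusted p = 0.0226) and with no filter on low counts (0.033). ERBB3, the kinase-impaired partner of HER2, had 632, 637 and 563 CPM with trastuzumab, against 551, 522 and 526 CPM untreated, a change of 0.20 ± 0.12 (adjusted p = 0.346). EGFR changed by 0.15 ± 0.13 and ERBB4 by -0.30 ± 0.15 (adjusted p = 0.523 and 0.249).

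Among 22 receptor and adaptor genes 2 rose, GRB2, the adaptor that couples HER receptors to RAS (0.36 ± 0.10, 145.7 ± 17.1 CPM with trastuzumab and 113.3 ± 10.8 untreated, SD, n = 3 each), and PTPN18, a phosphatase that acts on HER2 (0.38 ± 0.11). The GRB2 call ended without trastuzumab replicate 2 or 3 or untreated replicate 1 or 2 (adjusted p = 0.112, 0.179, 0.0714 and 0.148), and that of PTPN18 without trastuzumab replicate 1, 2 or 3 or untreated replicate 2 or 3 (0.0876, 0.093, 0.0609, 0.147 and 0.0606), and 0 to 1 of the 22 genes rose with 1 library left out. With the block 5 rose and 6 fell. Of 9 ligand and sheddase genes 1 fell, the sheddase gene ADAM17 (-0.40 ± 0.11), and none of the 8 other genes, TGFA, AREG, BTC, HBEGF, EGF, NRG3, NRG4 and ADAM10, passed. ADAM17 also did not pass without trastuzumab replicate 1, 2 or 3 or untreated replicate 1 or 2 (adjusted p = 0.0843, 0.0785, 0.092, 0.0657 and 0.116). Of 20 genes of the amplified segment around ERBB2 only MIEN1 rose (0.49 ± 0.11), and the list's median was 0.01. MIEN1 overlaps the 3' end of ERBB2 on the other strand, and the strandedness of the libraries is not given in the sources used here, so its reads and those of ERBB2 cannot be told apart. The MIEN1 call ended without trastuzumab replicate 1 or untreated replicate 2 (adjusted p = 0.0554 and 0.064).

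**Figure D2:**
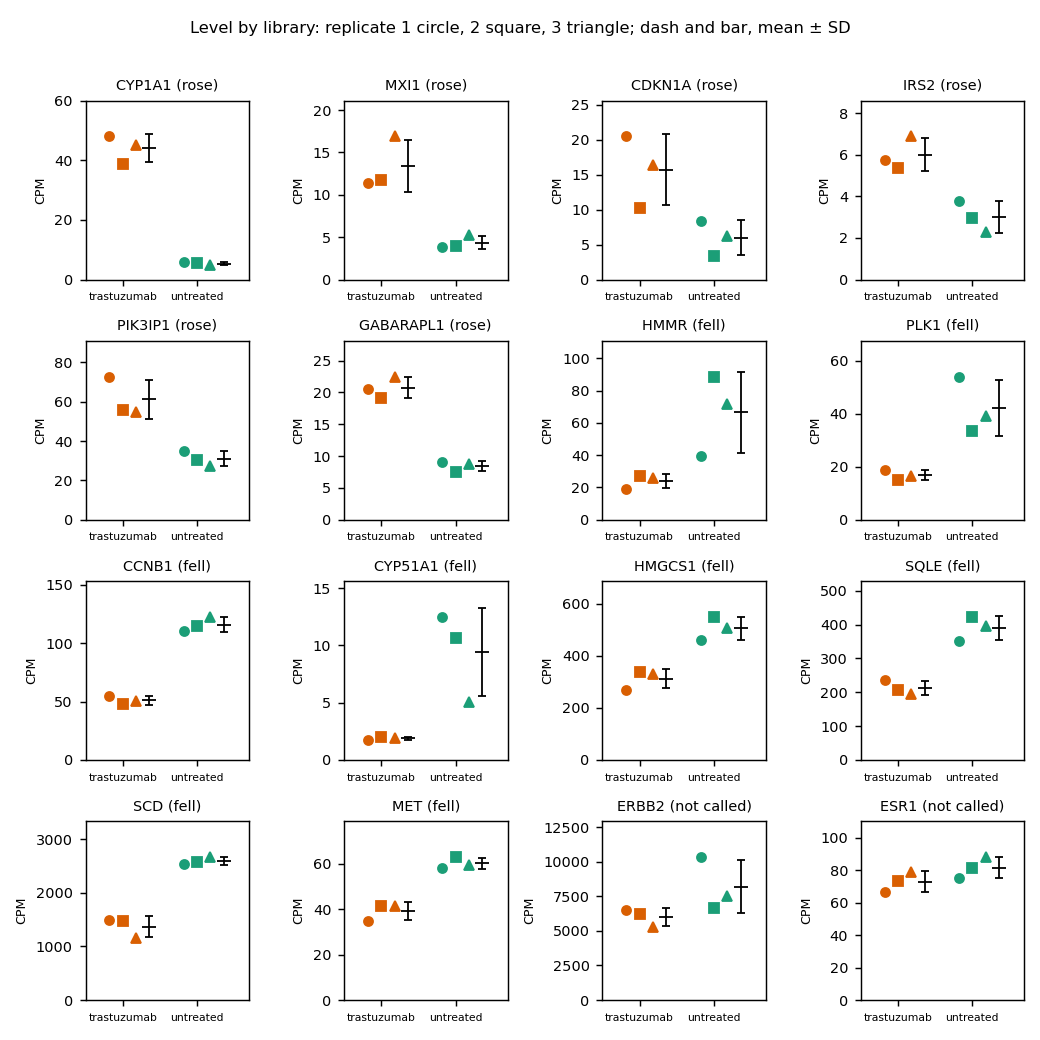
Levels in CPM (vertical axes from 0) of 16 genes in each trastuzumab library (left, orange) and each untreated library (right, green), with the replicates as circle, square and triangle and the mean ± SD (n = 3) beside them. The groups are apart for every gene marked rose or fell, ERBB2 is spread widely in untreated cells, and ESR1 overlaps.

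The broadest change was in genes of mitosis, where 54 of 71 tested members of 2 lists fell and none rose. Of 38 spindle and kinetochore genes 29 fell (76.3%), and of 33 genes of mitotic kinases, cyclins and exit 25 fell (75.8%), against 3.78% of all tested genes. All 71 had a negative log2 fold change, with medians of -0.84 and -0.81, against -0.02 over all tested genes. In bulk RNA, fewer cells in mitosis and less of each RNA per cell cannot be told apart. With 1 library left out, 23 to 32 and 19 to 24 members fell.

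CCNB1, encoding cyclin B1, which drives entry into mitosis, had 55.1, 47.7 and 50.7 CPM with trastuzumab and 110.5, 114.8 and 122.7 CPM untreated. The groups were far apart and each was tight, and CCNB1 fell by 1.18 ± 0.10 on the log2 scale (adjusted p = 7.76e-07). PLK1, a kinase of mitotic entry and spindle assembly, had 18.8, 15 and 16.5 CPM with trastuzumab, against 54.0, 33.3 and 39.0 CPM untreated, a change of -1.33 ± 0.19 (adjusted p = 0.000278). HMMR, a spindle protein, had 19.3, 26.9 and 25.9 CPM with trastuzumab and 39.4, 88.7 and 71.5 CPM untreated (-1.47 ± 0.26, adjusted p = 0.00172). In both groups HMMR was lowest in replicate 1, and the nearest pair of libraries, trastuzumab replicate 2 and untreated replicate 1, still differed.

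The members that fell act at several steps of mitosis. CDK1, the partner kinase of cyclin B, changed by -0.81 and CCNA2, cyclin A2, by -0.82. Among spindle motors and assembly factors KIF20A changed by -1.03, KIF14 by -1.26 ± 0.24, DLGAP5 by -1.32 ± 0.18 and ASPM by -1.19 ± 0.19. The checkpoint kinase gene BUB1 changed by -1.16 (28.1 CPM with trastuzumab and 62.6 CPM untreated, group means). AURKA, the kinase of the spindle poles, changed by -0.90 (113.6 CPM with trastuzumab and 212.7 CPM untreated, group means). CDC20, which activates the ubiquitin ligase that ends mitosis, changed by -1.30 ± 0.19, with 23.8, 17.9 and 19.8 CPM with trastuzumab and 63.5, 37.0 and 50.5 CPM untreated. Its processed pseudogene CDC20P1 stood at 14.7 CPM with trastuzumab and 33.0 CPM untreated, so reads of the 2 may have been split. Of the 17 members that did not pass, FOXM1 and MYBL2, transcription factors of these genes, changed by -0.38 and -0.55, and AURKB by -0.61.

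CENPE, a kinetochore motor, had the largest fall of the spindle list (-1.56 ± 0.34), and its call ended without trastuzumab replicate 1 or untreated replicate 2 (adjusted p = 0.0528 and 0.0688). The proliferation marker gene MKI67 had 56.5, 101 and 83.0 CPM with trastuzumab and 104, 167 and 161 CPM untreated, a change of -0.85 ± 0.21. The MKI67 values of trastuzumab replicate 2 and untreated replicate 1 nearly met, and its call ended without trastuzumab replicate 1 or 3 or untreated replicate 2 or 3 (adjusted p = 0.0915, 0.0567, 0.0964 and 0.0645).

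The promoters of many of these genes hold short elements, shown here for HMMR, PLK1, DLGAP5 and CDC20. They were taken from the 5 members with the largest changes among those with a sequence and at least 5 CPM on average. These 4 hold the elements. The fifth, CENPE, holds no cell cycle genes homology region (CHR) element and no CCAAT box in this window. The sequences are from RefSeq on GRCh38.p14, 5′ to 3′ along the gene, from 250 bases before to 50 bases after the first listed start. They lie at chr5:163460382-163460681, plus strand (HMMR), chr16:23678639-23678938, plus strand (PLK1), chr14:55191536-55191835, minus strand (DLGAP5) and chr1:43358731-43359030, plus strand (CDC20). Capitals mark CHR elements (TTTGAA or TTCGAA, searched on both strands, so that TTCAAA is marked too) and CCAAT boxes (CCAAT, or ATTGG on the other strand).
HMMR: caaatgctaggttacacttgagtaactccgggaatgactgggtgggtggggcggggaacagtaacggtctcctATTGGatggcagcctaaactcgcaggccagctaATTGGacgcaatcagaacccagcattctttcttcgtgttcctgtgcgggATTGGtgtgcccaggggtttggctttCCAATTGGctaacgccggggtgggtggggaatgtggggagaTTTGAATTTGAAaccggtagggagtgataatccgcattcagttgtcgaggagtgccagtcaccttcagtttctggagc
PLK1: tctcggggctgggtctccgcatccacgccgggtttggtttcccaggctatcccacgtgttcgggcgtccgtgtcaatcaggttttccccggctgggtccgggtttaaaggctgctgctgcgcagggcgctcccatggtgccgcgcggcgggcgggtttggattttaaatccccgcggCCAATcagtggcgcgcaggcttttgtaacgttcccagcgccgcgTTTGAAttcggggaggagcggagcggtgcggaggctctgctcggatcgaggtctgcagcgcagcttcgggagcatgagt
DLGAP5: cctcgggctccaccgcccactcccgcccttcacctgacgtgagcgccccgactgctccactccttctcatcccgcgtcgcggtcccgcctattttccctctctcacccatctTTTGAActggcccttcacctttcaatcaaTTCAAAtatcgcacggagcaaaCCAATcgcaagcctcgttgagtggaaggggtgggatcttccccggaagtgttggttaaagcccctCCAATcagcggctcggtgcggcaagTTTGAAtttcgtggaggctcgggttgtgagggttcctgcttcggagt
CDC20: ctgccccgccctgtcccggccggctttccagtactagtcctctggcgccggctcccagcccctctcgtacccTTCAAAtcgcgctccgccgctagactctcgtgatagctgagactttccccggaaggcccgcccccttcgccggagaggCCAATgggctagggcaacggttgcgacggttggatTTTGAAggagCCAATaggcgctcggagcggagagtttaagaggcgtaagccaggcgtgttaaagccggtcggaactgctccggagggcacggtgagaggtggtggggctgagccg
HMMR holds 2 CHR elements, at -28 and -22 relative to the start, and 5 CCAAT boxes, of which 1 overlaps another. PLK1 holds a CHR element at -29 and a CCAAT box at -73. A CHR element was in 68.9% of the 61 mitosis promoters with a sequence, in 24.9% of 503 promoters of all fallen genes, in 10.5% of 467 promoters of risen genes and in 11.2% of 10914 promoters of tested genes. CCAAT boxes were in 72.1% of the mitosis promoters and 36.7% of those of tested genes. These are matches of letters, not measured binding.

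**Figure D3:**
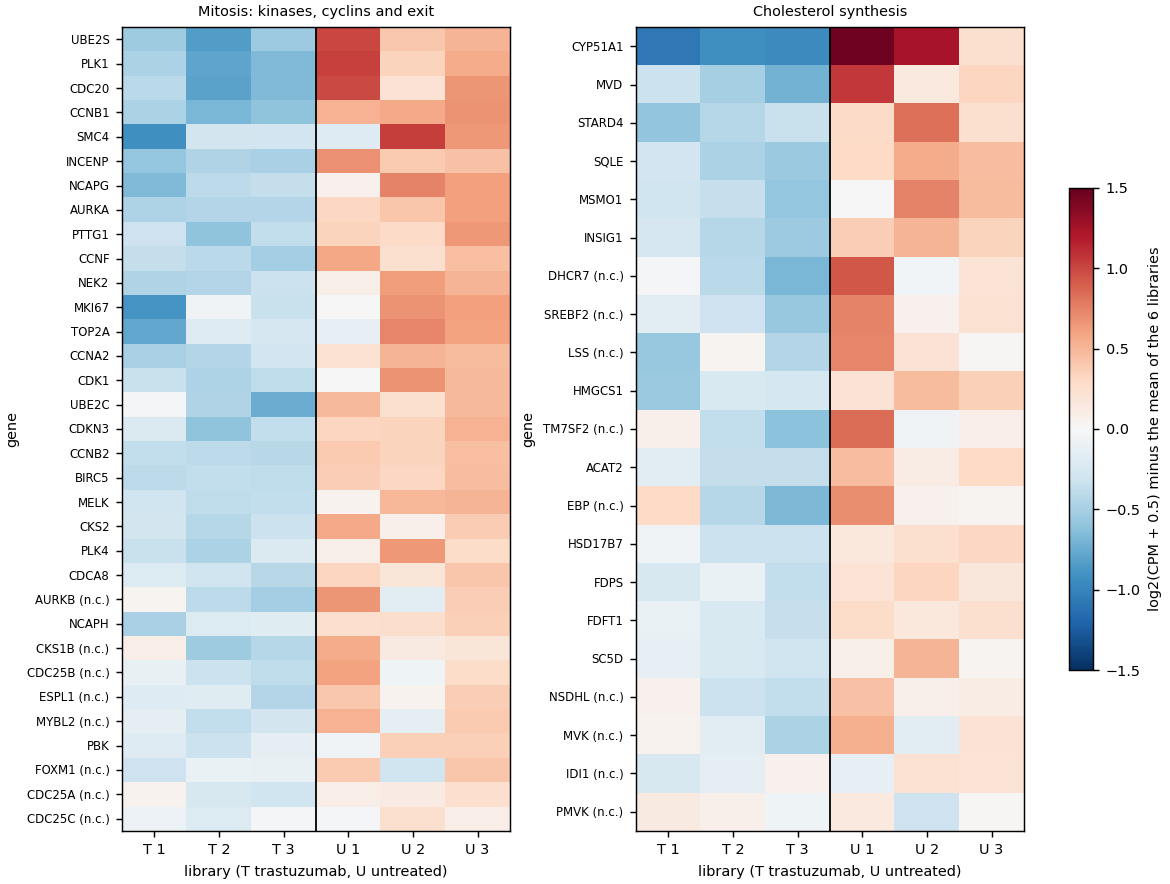
Deviation of log2(CPM + 0.5) from the mean of the 6 libraries (colour, red higher and blue lower) for tested genes of 2 lists (rows, 33 of mitosis and 21 of cholesterol synthesis, n.c. for not called), with the trastuzumab libraries left of the line and the untreated libraries right of it. Of the called genes, all 12 drawn for cholesterol synthesis are blue in each trastuzumab library and red in each untreated library, and 4 of the 25 mitosis genes have 1 library on the other side of the mean.

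Of 47 DNA replication genes 10 fell, against 3.78% of all tested genes, and none rose, with a median of -0.29. ORC6, a subunit of the origin recognition complex, had 31.7, 28.4 and 27.4 CPM with trastuzumab and 44.2, 55 and 43.9 CPM untreated (-0.71 ± 0.10, adjusted p = 0.000321). CHAF1A, a histone chaperone of replicating DNA, changed by -0.58 ± 0.11 and RFC4, a clamp loader subunit, by -0.48, the last not past the test without trastuzumab replicate 3 or untreated replicate 2 (adjusted p = 0.0591 and 0.078). PCNA, the sliding clamp, changed by -0.15, TYMS by -0.02 and RRM2 by -0.25, and these 3 did not pass. With the replicate block 27 of the 47 fell, against 14.8% of all tested genes, and 3 to 8 with 1 library left out, the fewest without trastuzumab replicate 3 (3), untreated replicate 2 (4), and trastuzumab replicate 1 or untreated replicate 3 (5 each). The CHAF1A call ended with only these 6 libraries in the fit (adjusted p = 0.0753).

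Of 29 DNA repair and checkpoint genes 10 fell, against 3.78% of all tested genes, with a median of -0.42. With the block 19 fell, against 14.8%. XRCC2, of homologous recombination, had 37.9, 41.6 and 36.9 CPM with trastuzumab and 57.4, 72.9 and 60.1 CPM untreated (-0.71 ± 0.13, adjusted p = 0.0016), and the polymerase gene POLQ changed by -0.78 ± 0.13. FANCI and FANCD2 of the Fanconi pathway changed by -0.56 and -0.51, and FANCD2 did not pass without trastuzumab replicate 1 or 3 or untreated replicate 2 (adjusted p = 0.0556, 0.0522 and 0.0686). The count was 5 without untreated replicate 2, 6 without trastuzumab replicate 1 or 3, and otherwise 7 to 11. Of 23 replication-dependent histone genes 2 fell, of which HIST1H3G also fell with each of the 6 libraries left out (-1.40 ± 0.29).

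Regulators of the G1 phase moved in both directions. CDKN1A, encoding the inhibitor p21, had 20.5, 10.3 and 16.4 CPM with trastuzumab and 8.35, 3.31 and 6.26 CPM untreated, a rise of 1.40 ± 0.27 (adjusted p = 0.00339). CDKN1A was lowest in replicate 2 of both groups, and the lowest trastuzumab value lay just above the highest untreated one. Its call ended with only these 6 libraries in the fit (adjusted p = 0.052). BTG2 and BTG1, antiproliferative genes, rose by 0.95 ± 0.10 and 0.70 ± 0.10, BTG2 with 71.3, 59.7 and 67.2 CPM with trastuzumab and 31.5, 33.1 and 37.8 CPM untreated. CDKN1B, encoding p27, which trastuzumab is known to stabilise as a protein, changed by -0.26 ± 0.15 (adjusted p = 0.300) and passed with the block (adjusted p = 0.0313). CCND1, cyclin D1, changed by -0.08 ± 0.10 (adjusted p = 0.684). With the block 7 of 27 G1 regulators rose and 6 fell, against 11.5% and 14.8% of all tested genes. Without it 5 rose and 3 fell, against 3.71% and 3.78%. The other rises were CDK6, a G1 kinase (0.65), and CCNG1, cyclin G1 (0.53), and neither passed without trastuzumab replicate 2 or 3 (adjusted p = 0.0859 and 0.198 for CDK6, 0.0575 and 0.219 for CCNG1) or without untreated replicate 1, 2 or 3 (0.0842, 0.0881 and 0.0972 for CDK6, 0.133, 0.067 and 0.104 for CCNG1). CCNG1 also failed without trastuzumab replicate 1 (0.0645). The falls were CDKN2C, which encodes the inhibitor p18 (-0.44), RBL1, a pocket protein gene (-0.59), and E2F8, a repressor of the E2F family (-0.70). CDKN2C passed only with untreated replicate 1 as the library left out, and RBL1 failed without untreated replicate 2 and E2F8 without untreated replicate 3 (adjusted p = 0.0627 and 0.0565). CDKN2C also failed with a GC correction (0.163). The rises numbered 3 without trastuzumab replicate 2 or 3 or untreated replicate 1, 2 or 3, and the falls 1 without untreated replicate 2 or 3.

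Of 27 genes listed as targets of the transcription factor p53, 8 rose (29.6%, against 3.71% of all tested genes) and none fell. The list's median was 0.34, and 24 changes were positive. The 8 risen genes were CDKN1A, BTG2, CCNG1, SESN1, SESN2, TP53INP1, FAS and MDM2. TP53INP1, a stress protein, had 182.4, 178.9 and 208.8 CPM with trastuzumab and 94.9, 113.6 and 110.9 CPM untreated (0.84 ± 0.12, adjusted p = 0.000291). FAS, a death receptor gene, had 1.85, 1.08 and 2.21 CPM with trastuzumab and 0.440, 0.207 and 0.136 CPM untreated, so its rise of 2.72 ± 0.49 (adjusted p = 0.00191) rests on low levels. MDM2, a ubiquitin ligase gene, changed by 0.59, and its call ended without trastuzumab replicate 1 or 3 or untreated replicate 1 or 3 (adjusted p = 0.0694, 0.0699, 0.0619 and 0.0604). BAX, BBC3 and GDF15 changed by 0.31, 0.76 and 1.35 and did not pass. With the block 15 of the 27 rose, against 11.5% of all tested genes, and 4 without trastuzumab replicate 3, 5 without trastuzumab replicate 1 or untreated replicate 2 or 3, and otherwise 6 or 7 with 1 library left out.

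**Figure D4:**
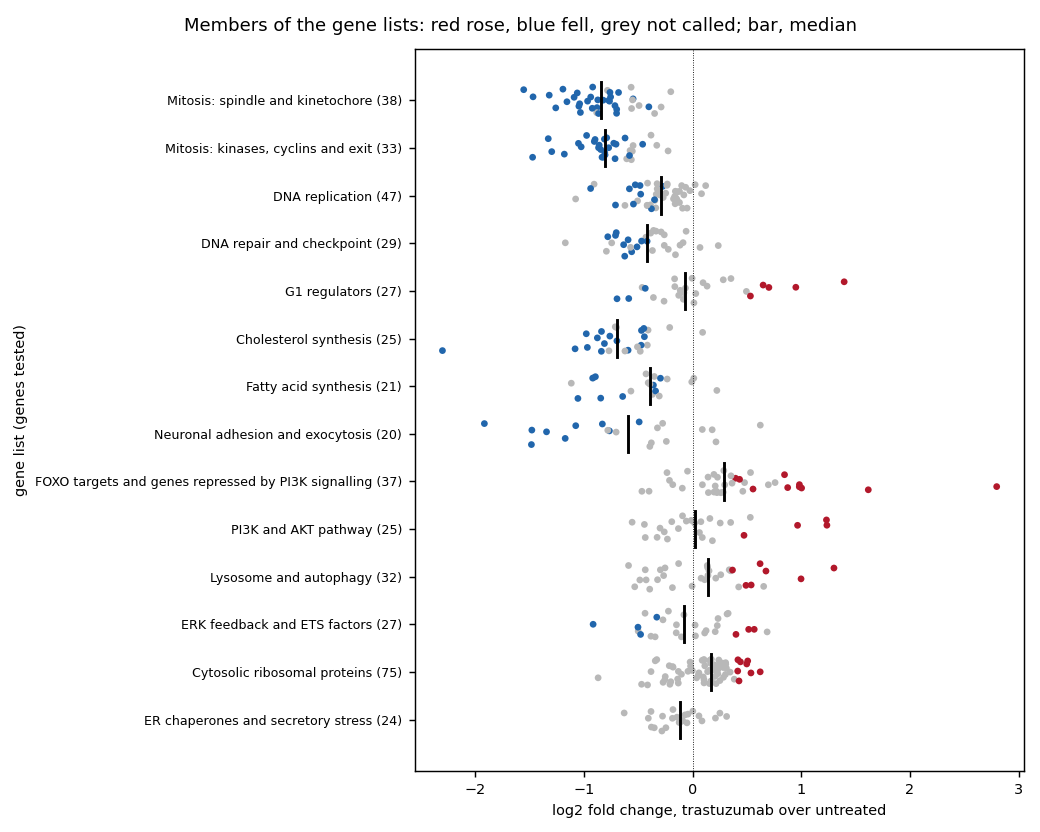
Log2 fold change of trastuzumab over untreated (horizontal axis) of every tested member of 14 gene lists (rows, number tested in brackets), red where it rose, blue where it fell and grey where it was not called, with the list median as a bar. The 2 mitosis lists and cholesterol synthesis lie almost wholly left of 0, and the FOXO list mostly right of it.

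Genes of early and late steps of cholesterol synthesis fell. Of 25 genes of the pathway, its regulators and uptake, 15 fell (60%, against 3.78% of all tested genes) and none rose, with a median of -0.70. HMGCS1, the synthase that feeds the pathway, had 269.8, 337.5 and 329.3 CPM with trastuzumab and 461, 550.5 and 506.7 CPM untreated (-0.70 ± 0.11, adjusted p = 0.000765), and the groups were well apart. SQLE, which makes squalene epoxide, changed by -0.88 ± 0.12 and FDFT1, which makes squalene, by -0.45. INSIG1, the sterol-regulated brake of the pathway, changed by -0.81.

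CYP51A1, the sterol demethylase, had 1.74, 2.00 and 1.93 CPM with trastuzumab and 12.5, 10.6 and 5.08 CPM untreated, the largest fall of all genes of at least 5 CPM (-2.30 ± 0.51, adjusted p = 0.00819). Its processed pseudogenes CYP51A1P2 and CYP51A1P1 took more counts than the gene itself, with 27.5 and 18.1 CPM with trastuzumab and 47.6 and 32.1 CPM untreated, so reads of the 3 may have been split and the size of the fall is uncertain. SREBF2, which encodes the transcription factor of the pathway, changed by -0.71 and DHCR7 by -0.77, and these did not pass. The count of 15 was 22 with the block and 10 to 12 with 1 library left out.

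In the promoters of the list, a CCAAT box was in 15 of 18 with a sequence (83.3%, against 36.7% for tested genes), and the sterol element TCACNCCAC in 1 of 18. CYP51A1, which fell more than any gene shown here, holds neither element in the window searched. The promoter of MVD, mevalonate decarboxylase, is shown as the member with a CCAAT box and the largest change (chr16:88663042-88663341, minus strand, CCAAT or ATTGG in capitals).
MVD: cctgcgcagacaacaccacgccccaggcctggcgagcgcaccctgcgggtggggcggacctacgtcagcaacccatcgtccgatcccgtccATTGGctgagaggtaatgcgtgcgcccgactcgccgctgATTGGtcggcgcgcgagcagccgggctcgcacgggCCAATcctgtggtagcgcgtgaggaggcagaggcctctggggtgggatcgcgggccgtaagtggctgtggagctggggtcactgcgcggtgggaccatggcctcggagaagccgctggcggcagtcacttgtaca
MVD itself had 34.2, 30.2 and 26.2 CPM with trastuzumab and 90.5, 47.7 and 53.7 CPM untreated. It fell by 1.08 ± 0.32 on the log2 scale (adjusted p = 0.0473), and none of the 6 fits that left out 1 library called it, with an adjusted p of 0.079, 0.116 and 0.17 without trastuzumab replicate 1, 2 and 3 and 0.191, 0.0516 and 0.0599 without untreated replicate 1, 2 and 3.

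Among 21 genes that make fatty acids, 8 fell (38.1%, against 3.78% of all tested genes) and none rose, and the median was -0.39. SCD, the desaturase that makes oleate, lost more CPM than any other gene that fell, with 1492, 1471 and 1151 CPM with trastuzumab and 2538.5, 2574.5 and 2673 CPM untreated (-0.92 ± 0.14, adjusted p = 0.000534). Its pseudogene SCDP1 moved with it (84.5 CPM with trastuzumab and 156.4 CPM untreated). ELOVL6, an elongase of long-chain fatty acids, had 46.5, 42.9 and 44.1 CPM with trastuzumab and 82.6, 107.6 and 87.3 CPM untreated (-1.06 ± 0.13, adjusted p = 7.48e-05). FADS1, a desaturase of polyunsaturated fatty acids, changed by -0.90 ± 0.13. FADS1 overlaps FADS2 on the other strand, and counts for the 2 cannot be kept apart without strand. FASN, the synthase itself, changed by -1.12 and ACACA by -0.91, and neither passed. The count was 16 with the block, which called 14.8% of all tested genes as fallen. It was 3 without trastuzumab replicate 3, 4 without trastuzumab replicate 1 or untreated replicate 3, and 5 without trastuzumab replicate 2 or untreated replicate 1 or 2.

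Of 12 genes of cholesterol efflux and LXR targets 2 rose and none fell (3 and 4 with the block), and the median was -0.32, with 8 negative changes. ABCA1, the cholesterol exporter, had 3.93, 4.01 and 3.53 CPM with trastuzumab and 1.32, 1.40 and 1.41 CPM untreated (1.47 ± 0.21, adjusted p = 0.000285). The smaller of the 2 rises was in MYLIP, a ubiquitin ligase gene (0.39 ± 0.11). The MYLIP call ended without trastuzumab replicate 2 or 3 (adjusted p = 0.0592 and 0.186) and without untreated replicate 1, 2 or 3 (0.07, 0.113 and 0.0543). ABCG1 changed by 0.53 and APOE by -0.61, without passing. Of 20 fatty acid oxidation genes in all, 2 rose and 1 fell, with a median of 0.09.

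Of 37 genes that FOXO factors induce, or that PI3-kinase signalling holds down, 10 rose (27.0%, against 3.71% of all tested genes) and none fell, with a median of 0.29 and 30 positive changes. C10orf10, a FOXO target of starved cells also known as DEPP1, had 4.21, 4.79 and 4.43 CPM with trastuzumab and 0.659, 0.569 and 0.681 CPM untreated (2.80 ± 0.19, adjusted p = 7.86e-08). MXI1, a repressor that competes with MYC for MAX, had 11.4, 11.8 and 16.9 CPM with trastuzumab and 3.85, 3.93 and 5.26 CPM untreated (1.62 ± 0.24, adjusted p = 0.000311). IRS2, an adaptor of insulin receptors, had 5.72, 5.38 and 6.88 CPM with trastuzumab and 3.79, 2.95 and 2.27 CPM untreated (1.00 ± 0.20, adjusted p = 0.00447). All trastuzumab libraries lay above all untreated libraries for these 3 genes.

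PIK3IP1, an inhibitor of PI3-kinase, had 72.8, 55.9 and 55 CPM with trastuzumab and 34.9, 30.5 and 27.5 CPM untreated (0.98 ± 0.18, adjusted p = 0.0019). The FOXO genes themselves were among the 10, with FOXO4 at 0.98 ± 0.15, FOXO1 at 0.85 and FOXO3 at 0.43. The others were SESN1 (0.56), SEPP1 (0.88), which encodes a selenium carrier, and FBXO32 (0.40), a ubiquitin ligase of muscle wasting. Without trastuzumab replicate 3 none of FOXO1, FOXO3, SESN1, SEPP1 and FBXO32 passed (adjusted p = 0.121, 0.172, 0.141, 0.0867 and 0.221). Each of these 5 also failed without at least 2 further libraries. IRS1, INSR, SESN3 and TXNIP changed by -0.18, 0.48, -0.09 and 0.30 without passing. With the block 21 of the 37 rose and 2 fell, against 11.5% and 14.8% of all tested genes, and with 1 library left out 5 (trastuzumab replicate 3), 6 (trastuzumab replicate 2) or 7 to 9.

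A forkhead motif (GTAAACA on either strand) was in 7 of 33 promoters of this list (21.2%), against 4.07% for all risen genes, 1.19% for fallen genes and 2.26% for tested genes. Of the 10 risen genes 3 held it, FOXO4, SEPP1 (SELENOP in RefSeq) and C10orf10 (DEPP1). The last 2 are shown, chosen after their motifs were seen, with the motif in capitals, at chr10:44978760-44979059, minus strand and chr5:42811843-42812142, minus strand.
DEPP1: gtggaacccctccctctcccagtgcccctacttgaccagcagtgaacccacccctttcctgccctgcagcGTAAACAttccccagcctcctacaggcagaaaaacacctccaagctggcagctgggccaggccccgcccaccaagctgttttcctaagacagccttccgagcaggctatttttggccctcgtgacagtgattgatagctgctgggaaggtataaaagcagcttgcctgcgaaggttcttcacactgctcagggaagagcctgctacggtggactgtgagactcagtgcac
SELENOP: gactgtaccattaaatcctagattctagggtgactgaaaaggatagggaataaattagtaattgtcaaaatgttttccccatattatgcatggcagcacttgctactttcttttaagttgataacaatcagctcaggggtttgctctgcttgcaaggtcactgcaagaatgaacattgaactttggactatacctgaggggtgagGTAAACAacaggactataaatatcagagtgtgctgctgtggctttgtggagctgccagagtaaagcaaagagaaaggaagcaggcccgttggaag
The motif starts at -180 in DEPP1 and at -45 in SELENOP. Only the first listed start of a gene was searched.

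Of 25 genes of the PI3-kinase and AKT pathway itself 4 rose, against 3.71% of all tested genes, and none fell. The median was 0.02. DEPTOR, a subunit that inhibits mTOR, had 51.8, 51.3 and 57.7 CPM with trastuzumab and 22.5, 21.4 and 24.4 CPM untreated (1.24 ± 0.13, adjusted p = 1.28e-05). SGK3, a kinase related to AKT, rose by 0.97 ± 0.21. INPP5D, a phosphatase of PIP3, rose by 1.23 ± 0.31 (1.38 ± 0.27 CPM with trastuzumab and 0.587 ± 0.106 CPM untreated, SD, n = 3 each) and TSC1, which restrains mTOR, by 0.47 ± 0.13. The INPP5D call ended without trastuzumab replicate 3 or untreated replicate 2 (adjusted p = 0.102 and 0.0819). That of TSC1 ended without trastuzumab replicate 1 or 2 or untreated replicate 1, 2 or 3 (adjusted p = 0.141, 0.06, 0.0712, 0.0565 and 0.102), and the count was 2 without untreated replicate 2. PIK3CA, AKT1 and MTOR changed by 0.25, -0.44 and -0.13 and did not pass. With the block 7 rose and 2 fell, against 11.5% and 14.8% of all tested genes.

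The largest rise among genes of at least 5 CPM was in CYP1A1, a cytochrome P450 enzyme that the aryl hydrocarbon receptor induces. It had 48.1, 38.9 and 45.1 CPM with trastuzumab and 5.77, 5.48 and 4.72 CPM untreated, 8.27-fold higher with trastuzumab (log2 fold change 3.05 ± 0.18, adjusted p = 1.31e-08). The lowest trastuzumab library lay far above the highest untreated library. CYP1A2, its neighbour on chromosome 15, rose too, at 1.29, 1.91 and 1.27 CPM with trastuzumab and 0.440, 0.414 and 0.181 CPM untreated (2.12 ± 0.40). AHRR, the repressor of the receptor, fell by 0.62 ± 0.17 on the log2 scale, and CYP1B1, TIPARP, NQO1 and AHR changed by 0.20, 0.47, 0.11 and 0.05 without passing. AHRR did not pass without trastuzumab replicate 2 or 3 or untreated replicate 1 (adjusted p = 0.0894, 0.124 and 0.121). Over 12 genes of this pathway 2 rose and 1 fell (5 and 1 with the block), with a median of 0.19. The promoter of CYP1A1 (chr15:74725479-74725778, minus strand) holds a single GCGTG, the core letters of the receptor's binding site, at -57, in capitals.
CYP1A1: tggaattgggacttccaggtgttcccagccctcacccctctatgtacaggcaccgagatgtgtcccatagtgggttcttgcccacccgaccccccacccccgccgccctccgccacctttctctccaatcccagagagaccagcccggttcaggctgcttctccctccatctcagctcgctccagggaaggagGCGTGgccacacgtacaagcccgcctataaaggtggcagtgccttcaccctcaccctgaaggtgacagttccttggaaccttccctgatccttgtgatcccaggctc
GCGTG was in 50.2% of promoters of tested genes.

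The ERK side of the response was mixed. Of 27 ERK feedback and ETS factor genes 3 rose and 4 fell, against 3.71% and 3.78% of all tested genes. The median was -0.08. With the block 4 rose and 7 fell, against 11.5% and 14.8%. DUSP6, the ERK phosphatase most often read as a measure of ERK activity, had 37.8, 27.7 and 31.3 CPM with trastuzumab and 33.5, 33.3 and 28.4 CPM untreated, groups that overlap (0.02 ± 0.12, adjusted p = 0.939). SPRY2, SPRY4 and CCND1 changed by 0.23, 0.23 and -0.08 without passing. ETV5 fell by 0.50 ± 0.12 on the log2 scale (7.12, 6.06 and 6.83 CPM with trastuzumab, 10.9, 9.15 and 8.35 CPM untreated), and ETV4, at -0.50 ± 0.24, passed with the block alone (adjusted p = 0.0156, against 0.219 without). DUSP10, a phosphatase of p38 and JNK, rose by 0.57 ± 0.12 and SPRY1, a feedback inhibitor, by 0.52 ± 0.13. With 1 library left out 0 to 3 rose and 0 to 3 fell. The ETV5 call ended without trastuzumab replicate 2 or untreated replicate 1 (adjusted p = 0.0758 and 0.0736) and that of DUSP10 without trastuzumab replicate 3 (0.0506). SPRY1 did not pass without trastuzumab replicate 2 or 3 or untreated replicate 2 or 3 (adjusted p = 0.0571, 0.104, 0.0525 and 0.066).

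Among 22 immediate early genes 2 fell (9 with the block), with a median of -0.43, which was -0.13 with a GC correction and -0.20 without replicate 1 of every group. JUN, a subunit of AP-1, had 17, 21.4 and 17.4 CPM with trastuzumab and 35.4, 34.4 and 41.1 CPM untreated (-0.99 ± 0.15, adjusted p = 0.000413), while EGR1, FOS and JUNB changed by -0.90, -0.49 and -0.91 without passing. CYR61, a matrix protein gene, changed by -0.70 ± 0.18, and its call ended without trastuzumab replicate 2 or 3 or untreated replicate 1 or 2 (adjusted p = 0.0785, 0.131, 0.0714 and 0.0754). Of 26 genes that encode receptor tyrosine kinases outside the HER family, or their ligands, 2 fell (9 with the block) and none rose, with a median of -0.30. MET, the receptor of hepatocyte growth factor, had 34.8, 41.4 and 41.4 CPM with trastuzumab and 58.2, 63.1 and 59.3 CPM untreated (-0.62 ± 0.10, adjusted p = 0.000696). Its call ended with only these 6 libraries in the fit (adjusted p = 0.0504). INSR, IGF1R, FGFR4 and RET changed by 0.48, 0.23, -0.67 and -0.44 without passing.

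ESR1, the estrogen receptor gene, had 66.4, 73.2 and 79.0 CPM with trastuzumab and 75.3, 81.1 and 88.1 CPM untreated, groups that overlap (-0.16 ± 0.10, adjusted p = 0.36). It overlaps SYNE1 on the other strand (22.4 CPM with trastuzumab and 35.3 CPM untreated). PGR, the progesterone receptor gene and a classical ESR1 target, had 578.3, 836.4 and 907.9 CPM with trastuzumab and 451.3, 540 and 573.4 CPM untreated. It rose by 0.57 ± 0.17 (adjusted p = 0.0428), with trastuzumab replicate 1 close to untreated replicate 3. The PGR call ended without trastuzumab replicate 2 or 3 (adjusted p = 0.132 and 0.211), without untreated replicate 1, 2 or 3 (0.136, 0.0992 and 0.0592) and scaled by library size alone (0.132). Of 24 estrogen receptor targets 2 rose and 1 fell (5 and 3 with the block), with a median of 0.12, and GREB1 and TFF1 changed by 0.26 and 0.59 without passing. Of 22 luminal transcription factor and receptor genes 1 rose and 2 fell (4 and 5 with the block), with a median of -0.06, and these 3 also passed with each library left out in turn. GHR, the growth hormone receptor gene, changed by -0.86 ± 0.12 and TFAP2A by -0.43 ± 0.09, which did not pass with only these 6 libraries in the fit (adjusted p = 0.116). FOXA1 and GATA3 changed by -0.03 and -0.13 without passing.

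Of 32 lysosome and autophagy genes 7 rose (21.9%, against 3.71% of all tested genes) and none fell, with a median of 0.14. GABARAPL1, a ubiquitin-like protein of the autophagosome, had 20.6, 19.2 and 22.5 CPM with trastuzumab and 9.07, 7.50 and 8.71 CPM untreated (1.30 ± 0.13, adjusted p = 9.54e-06). MAP1LC3B, which encodes LC3B of the same family, rose by 0.67 ± 0.12, ATG14, of the kinase complex that starts autophagosomes, by 0.62 ± 0.14, and the cathepsin gene CTSF by 1.00 ± 0.20. TP53INP2, another autophagy gene, had 262, 257.3 and 250.9 CPM with trastuzumab and 199.1, 141.3 and 189.6 CPM untreated (0.54 ± 0.11). The lysosomal genes LAMP1, LAMP2 and CTSD changed by -0.44, -0.30 and -0.49 and SQSTM1 by -0.01, and none passed. With the block 11 rose and 8 fell, against 11.5% and 14.8% of all tested genes, and 5 to 8 rose with 1 library left out. The calls of ATG14 and TP53INP2 ended with only these 6 libraries in the fit (adjusted p = 0.0602 and 0.088).

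Of 75 cytosolic ribosomal protein genes 8 rose, against 3.71% of all tested genes, and none fell, with a median of 0.16. With the block 24 rose and 4 fell, against 11.5% and 14.8% of all tested genes. RPL22 had 128.2, 110.3 and 133.2 CPM with trastuzumab and 78.6, 85.9 and 91.6 CPM untreated (0.54 ± 0.10, adjusted p = 0.00336), and RPL13A rose by 0.62 ± 0.13. Ribosomal protein genes have many processed pseudogenes that share their reads, so single values are uncertain: RPL13AP5, for one, held 242.1 CPM with trastuzumab and 225.9 CPM untreated. The count was 3 without trastuzumab replicate 3 or untreated replicate 2, 5 without trastuzumab replicate 1 and 11 without trastuzumab replicate 2. RPL22 did not pass with only these 6 libraries in the fit (adjusted p = 0.0715). RPL23, the largest gain in CPM of all risen genes (2109 ± 250.2 with trastuzumab and 1554.5 ± 191 untreated, SD, n = 3 each), passed narrowly (adjusted p = 0.0488), and not without trastuzumab replicate 1 or 3 or untreated replicate 1 or 2 (0.091, 0.215, 0.129 and 0.152). Of 35 ribosome biogenesis genes 2 fell, with a median of -0.12.

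The stress lists are set beside all tested genes, of which 3.71% rose and 3.78% fell, or 11.5% and 14.8% with the block. Of 28 ATF4 targets and amino acid supply genes 3 rose, DDIT3, a stress transcription factor gene, by 0.69 ± 0.11 (45.7, 38.9 and 40.0 CPM with trastuzumab, 23.8, 28.2 and 25.0 CPM untreated), with ATF4 and SESN2, while ASNS, CHAC1 and TRIB3 changed by -0.02, 0.27 and -0.04 without passing. DDIT3 overlaps MARS and MBD6 on the other strand, which may share its reads. Without trastuzumab replicate 3 or untreated replicate 2 only DDIT3 passed. Of 15 heat shock genes 1 rose and 2 fell (1 and 8 with the block). HSPB8, a small chaperone gene, had 52.8, 45.0 and 61.4 CPM with trastuzumab and 29.3, 25.4 and 32.3 CPM untreated (0.87 ± 0.17, adjusted p = 0.00351), and the falls of HSPH1 (-0.74) and STIP1 (-0.37), a chaperone and a cochaperone, both ended without trastuzumab replicate 1, 2 or 3 or untreated replicate 3. None of 24 endoplasmic reticulum chaperone genes, 15 mitochondrially encoded transcripts, 10 antigen presentation genes or 8 keratin genes passed at an adjusted p under 0.05 in edgeR. At an unadjusted p under 0.05 these lists held 4, 0, 3 and 1 genes, and DESeq2 called 3 of the endoplasmic reticulum list and 0 of the others. With the block, 1 gene rose in each of the first 3 lists and none among the keratins, and 5 endoplasmic reticulum, 3 antigen presentation and 3 keratin genes fell. Of 37 hypoxia and glycolysis genes 3 fell, of 41 nuclear-encoded respiratory chain genes 1 rose and 1 fell, of 25 interferon-stimulated genes 1 rose and of 17 BCL2 family genes 1 rose, HRK. With 1 library left out the hypoxia falls numbered 0 to 1, and the respiratory chain rises 0 to 1 and falls 0. With the block 7 BCL2 family genes rose and 3 fell, against 11.5% and 14.8% of all tested genes. A GC correction gave 9 rises and 2 falls in this family, and 1257 rises and 1540 falls over all genes of that fit. Of the hypoxia and glycolysis genes 6 rose and 7 fell with the block, of the respiratory chain genes 5 rose and 5 fell, and of the interferon-stimulated genes 3 rose and 1 fell. These counts lay not far above, or below, the shares over all tested genes. The rises of HRK and of the interferon-stimulated gene IFIT2 ended without trastuzumab replicate 3 or untreated replicate 2 or 3 (adjusted p = 0.129, 0.0915 and 0.0747 for HRK, 0.206, 0.1 and 0.0917 for IFIT2). HRK also failed without trastuzumab replicate 2 (0.0609) and IFIT2 without trastuzumab replicate 1 (0.0709).

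Of 20 genes of neuronal adhesion and exocytosis 9 fell (45%, against 3.78% of all tested genes) and none rose, with a median of -0.60, and 8 to 9 fell with 1 library left out. PCDH7, a protocadherin gene, had 5.50, 5.18 and 5.79 CPM with trastuzumab and 21.8, 22.8 and 17.7 CPM untreated (-1.92 ± 0.21, adjusted p = 1.49e-05). SYT1, a calcium sensor of vesicle release, had 8.36, 9.19 and 9.42 CPM with trastuzumab and 22.3, 29.3 and 24.0 CPM untreated (-1.48 ± 0.14, adjusted p = 5.36e-06). PCDH10, PCDH9 and GABRE, a subunit of a GABA receptor, changed by -1.48 ± 0.26, -1.34 ± 0.29 and -1.17 ± 0.22. NCAM2, an adhesion molecule, had the highest level among the 9, at 91.5 CPM with trastuzumab and 162.8 CPM untreated (-0.83). This list, like all the others, was drawn up with earlier results of these libraries known, so its direction is no independent evidence. ROBO1, a receptor of axon guidance, had 19.0, 22.3 and 18.1 CPM with trastuzumab and 51.4, 58.9 and 47.2 CPM untreated (-1.41 ± 0.13, adjusted p = 4.26e-06), and SLITRK6, a neuronal membrane protein, had 54.5, 55.9 and 58.0 CPM with trastuzumab and 131.7, 175.2 and 139.1 CPM untreated (-1.41 ± 0.15).

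Other surface genes moved one by one. Of 32 matrix and integrin genes 5 fell, against 3.78% of all tested genes, and none rose, with a median of -0.38. With the block 16 fell and 1 rose, against 14.8% and 11.5%. ITGB6, an integrin subunit, changed by -0.83 ± 0.15 and the protease gene ADAMTS1 by -0.72 ± 0.14, and the count was 2 without trastuzumab replicate 1 or untreated replicate 2 and 3 without trastuzumab replicate 2 or 3. The ITGB6 call ended with only these 6 libraries in the fit (adjusted p = 0.0537). Of 21 epithelial and mesenchymal identity genes 1 rose and 1 fell (3 and 8 with the block), with a median of -0.20. VIM, encoding vimentin, rose (0.79 ± 0.15, 24.6 ± 3.03 CPM with trastuzumab and 14.3 ± 1.49 CPM untreated, SD, n = 3 each). CDH2, encoding N-cadherin, fell (-1.01 ± 0.17, 11.2 ± 1.18 CPM with trastuzumab and 22.6 ± 2.14 CPM untreated). CDH1, E-cadherin, changed by -0.35 without passing. Of 22 Wnt pathway genes 2 fell (8 with the block). FZD8, a Wnt receptor, had 6.90, 3.81 and 3.72 CPM with trastuzumab and 20.1, 11.4 and 11.4 CPM untreated (-1.58 ± 0.32, adjusted p = 0.00447). Of 16 Notch pathway genes 1 rose and 1 fell (1 and 7 with the block), with a median of -0.28. NOTCH1 had 15.5, 15.2 and 16.9 CPM with trastuzumab and 53.2, 30.9 and 25.7 CPM untreated (-1.20 ± 0.33), and its call ended without trastuzumab replicate 1, 2 or 3 or untreated replicate 1 or 2 (adjusted p = 0.0908, 0.0996, 0.0938, 0.15 and 0.0565). Of 21 transporter genes 4 fell, led by SLC12A2, the sodium-potassium-chloride cotransporter (210.7 ± 35.1 CPM with trastuzumab and 392 ± 71.9 CPM untreated, -0.90 ± 0.15), and the count was 2 without trastuzumab replicate 3 and 1 without untreated replicate 2.

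Of 22 STAT and cytokine signalling genes 2 rose and 1 fell (5 and 2 with the block). SOCS2, a suppressor of growth hormone and cytokine signalling, had 30.5, 28.7 and 34.2 CPM with trastuzumab and 15.2, 16.4 and 16.2 CPM untreated (0.97 ± 0.14, adjusted p = 0.000231). Its antisense neighbour SOCS2-AS1 rose by 1.56 ± 0.17, and the 2 overlap on opposite strands, so their reads cannot be told apart here. Of 14 genes of the MAX network 2 rose, MXI1 and BHLHE40, and only MXI1 did so with any library left out. Of 17 mammary secretory protein genes 2 rose, PIP and SCGB1D2, and neither passed without trastuzumab replicate 1 or untreated replicate 2 or 3. Among basal and myoepithelial markers MME fell (-0.65 ± 0.19), a call that ended with each library but untreated replicate 1 left out.

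Outside the lists, genes of varied function rose. CRYM, a thyroid hormone binding protein, had 19.5, 17.4 and 19.1 CPM with trastuzumab and 6.54, 6.05 and 5.08 CPM untreated (1.66 ± 0.13, adjusted p = 3.61e-07). RAI2, a transcriptional regulator, had 45.7, 48.5 and 54.8 CPM with trastuzumab and 18.5, 13.0 and 19.9 CPM untreated (1.54 ± 0.17). TNFSF15, a ligand of the TNF family, had 73.9, 69.9 and 67.2 CPM with trastuzumab and 28.9, 28.1 and 21 CPM untreated (1.44 ± 0.16). IGFBP3, which binds insulin-like growth factors, rose by 1.31 ± 0.13, STON1, an endocytic adaptor, by 1.40 ± 0.14, NXPH3, a neurexin ligand, by 1.35 ± 0.18, and SIGLEC15, a lectin, by 1.29 ± 0.20. The non-coding genes LINC01411 and RP11-7K24.3 rose by 1.53 ± 0.21 and 1.36 ± 0.22. Among abundant genes BCAS1, amplified in some breast cancers, had 420.1, 534.3 and 490.4 CPM with trastuzumab and 203.7, 226 and 228.4 CPM untreated (1.14 ± 0.12, adjusted p = 1.48e-05), and DHRS2, a dehydrogenase, rose by 0.80 ± 0.12 (707.5 ± 75.2 CPM with trastuzumab and 407.2 ± 58.3 CPM untreated, SD, n = 3 each).

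Beside ROBO1 and SLITRK6, genes outside the lists that fell included PIF1, a DNA helicase, with 1.74, 2.39 and 1.41 CPM with trastuzumab and 10.5, 7.08 and 7.08 CPM untreated (-2.15 ± 0.28, adjusted p = 0.000102), SOX2, a transcription factor of stem cells (-1.48 ± 0.26, 5.10 ± 1.56 CPM with trastuzumab and 14.2 ± 5.30 CPM untreated, SD, n = 3 each), and SAPCD2, a regulator of spindle orientation (-1.33 ± 0.21). Beside SCD and FADS2, falls of many CPM were in HNRNPA2B1, TFRC, EIF4G1, ITGB1 and TSPAN13. HNRNPA2B1 did not pass without trastuzumab replicate 1, 2 or 3 or untreated replicate 2 or 3 (adjusted p = 0.103, 0.0666, 0.0773, 0.15 and 0.0829). FADS2 failed without trastuzumab replicate 2 or 3 or untreated replicate 1 or 3 (0.0984, 0.185, 0.157 and 0.0661). TSPAN13 failed without trastuzumab replicate 2 or 3 or untreated replicate 2 (0.12, 0.133 and 0.101). ITGB1 failed without trastuzumab replicate 1 or untreated replicate 2 (0.108 and 0.135). EIF4G1, a scaffold of translation initiation, had 695.1, 793.2 and 744.5 CPM with trastuzumab and 1080, 988.3 and 1024 CPM untreated (-0.47 ± 0.11), and did not pass without trastuzumab replicate 1 (adjusted p = 0.0522). TFRC, the transferrin receptor gene, changed by -0.44 ± 0.13 and did not pass without trastuzumab replicate 1, 2 or 3 or untreated replicate 2 or 3 (adjusted p = 0.163, 0.052, 0.0877, 0.198 and 0.0586).

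Cells given both antibodies differed from those given trastuzumab in few genes, 153 of 17650 (0.867%). Of the 1321 genes of the trastuzumab response, 50 were among them, 27 further in the same direction. CYP1A1 had 97.7, 73.9 and 93.2 CPM with both antibodies, a further rise of 1.00 ± 0.16 over trastuzumab (adjusted p = 0.00222). C10orf10 averaged 10.1 CPM with both antibodies and 4.47 CPM with trastuzumab (1.18, adjusted p = 0.000289). PCDH7 and SYT1 were lower still with both (-1.77 and -1.31 against trastuzumab, adjusted p = 0.000372 and 0.000112). In other genes the direction turned, and PGR stood at 454.9 CPM with both antibodies and 774.2 CPM with trastuzumab (-0.77, adjusted p = 0.0291). That difference of PGR did not pass without trastuzumab replicate 2 or 3 (adjusted p = 0.178 and 0.215) or without replicate 1 or 2 with both antibodies (0.234 and 0.133). ITGB6 stood at 31.5 CPM with both antibodies and 10.5 CPM with trastuzumab (1.58, adjusted p = 1.51e-05). ERK feedback genes were the list that differed most often, with 8 of 27 higher with both than with trastuzumab and none lower. ETV5 had 23.9 CPM with both and 6.67 CPM with trastuzumab (1.84, adjusted p = 6.69e-08), and DUSP6 65.5 CPM with both and 32.2 CPM with trastuzumab (1.02, adjusted p = 0.000146). None of the 71 mitosis and none of the 25 cholesterol genes differed between the 2 treatments at an adjusted p under 0.05 in edgeR, with 1 and 2 genes at an unadjusted p under 0.05 and none called by DESeq2. The trastuzumab libraries enter both comparisons, so a gene's 2 values are not independent. The 153 genes were 388 with the block, and 82 without trastuzumab replicate 3 or replicate 1 with both antibodies, 87 without replicate 2 with both and 96 without trastuzumab replicate 2.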

How the data were processed

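Total RNA of BT474 cells was sequenced, and the authors deposited a table of raw gene counts and a table of log2-like, variance-stabilised values. Reads were processed with Bowtie2, featureCounts and DESeq2 on hg38, per the submitters' processing notes; versions and strandedness are not given in the sources used here. The counts of all 21 libraries (7 groups of 3, 14 residual degrees of freedom) were fitted with edgeR 4.0.16 in R 4.3.3, with the quasi-likelihood F-test, filterByExpr (minimum count 10, minimum total 15) and TMM scaling. P-values were Benjamini-Hochberg adjusted over 17650 genes and called under 0.05. CPM are counts scaled to TMM-adjusted library totals, and standard errors are the log2 fold change over the square root of F. DESeq2 1.42.0 on the counts and limma 3.58.1 on the deposited log2-like values were alternatives.

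Same-numbered trastuzumab and untreated libraries deviated together (r = 0.615, 0.275 and 0.512 for replicates 1, 2 and 3). Trastuzumab replicate 2 with untreated replicate 3 had r = 0.228, and trastuzumab replicate 3 with untreated replicate 2 had r = 0.316. Replicate 1 was thus set apart, but replicates 2 and 3 were not told from each other. The labels give only numbers, and the block took these as pairs, which for replicates 2 and 3 is an assumption. No 2 replicates agreed within counting noise. Genes of the 49 lists, and the lists themselves, were chosen with earlier results of these data known. Named genes are called genes with at least 5 CPM on average and no overlap between groups (15 largest rises and falls), the 8 largest gains and losses of CPM, up to 5 members per list by size of change, and 17 set genes such as ERBB2. Some genes are not reported here, not every other such gene is printed, and further list members were picked after their values were seen. Positions are from GENCODE 29 and promoters from RefSeq on GRCh38.p14. In simulated counts of 17650 genes, only genes above 5 CPM on average were changed, 67 by 1.5-fold, 67 by 2-fold and 66 by 4-fold. The fit recovered 95.5% of the 2-fold and 19.4% of the 1.5-fold changes in this comparison. Of its 149 calls, 6 were of genes that had not been changed. The simulated noise was independent between libraries, unlike the shared deviations of the real replicates. Each gene was also given the spread fitted for its mean level, not its own. These figures thus need not hold for the real data.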

Additional observations from a re-analysis of the deposited data

Results flagged for a closer look

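The difference between the 2 treatments was itself tested for the genes set out by name. CYP1A1 was higher with both antibodies than with trastuzumab by 1.004 on the log2 scale (adjusted p = 0.00222, edgeR's quasi-likelihood test), with 97.7, 73.9 and 93.2 CPM with both antibodies and 48.1, 38.9 and 45.1 CPM with trastuzumab, and was thus highest with both, lower with trastuzumab and lowest untreated (5.77, 5.48 and 4.72 CPM). PGR differed by -0.767 (adjusted p = 0.0291), averaging 454.9 CPM with both antibodies, 774.2 CPM with trastuzumab and 521.6 CPM untreated, and that call ended with each of 4 of the 6 libraries compared left out in turn.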

How the results depend on the processing

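The 654 rises and 667 falls depended on the fit. Rises numbered 162 with only the groups compared, 359 when scaled to library totals, 373 with a fold threshold of 1.5, 1167 without replicate 1 of every group, 1257 with a GC correction and 2179 with a GC correction and the replicate block. With the replicate block they numbered 2025, and 1434 with the block and only the groups compared. Falls numbered 1136 with no filter, 219 with only the groups compared, 404 with the fold threshold, 1305 without replicate 1 of every group, 1540 with the GC correction and 2647 with the GC correction and replicate block. With the replicate block alone they numbered 2604, and 1929 with the block and only the groups compared. The 153 genes that differed between both antibodies and trastuzumab were 55 with only the groups compared, 388 with the replicate block, 558 with the block and only the groups compared, 258 with the GC correction and 479 with the GC correction and replicate block. With 1 library left out, rises ran from 280 to 570, falls from 317 to 605 and differences between the treatments from 82 to 117. The settings without replicate 1 of every group or with a GC correction were added after the data were seen, and the cause of each shift was not tested, except that the fold threshold and the smaller fits leave fewer genes or libraries by construction.

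Of 191 single-gene results, 84 lost their call with only the groups compared, 48 with the fold threshold, 44 when scaled to library totals, 23 with no filter, 18 with limma, 7 without replicate 1 of every group, 6 with the GC correction, 1 with RLE scaling and 1 with DESeq2. With 1 library left out, from 37 (untreated replicate 1) to 71 (trastuzumab replicate 3) of the 191 lost their call, and 70 did without untreated replicate 2. The calls that the GC correction ended include those of ADAM17, ATF4, GRB2, SCGB1D2 and CDKN2C, and it added that of ESR1 (adjusted p = 0.0481), and no filter added that of ERBB2. No call changed direction in any setting run. The replicate block added the calls of ERBB2, CDKN1B and ETV4 and changed no other single-gene call. Without the block, 19.4% of the 67 genes with a simulated 1.5-fold change were recovered.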

Other observations

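Across the 14921 tested genes above a minimum mean level and with a known GC content, the log2 fold change correlated with GC content at r = -0.219. This is a description across genes, which are not independent replicates. Without that minimum level, the median GC content was 46.8% for risen genes, 44.6% for fallen genes and 47.6% for all tested genes. Both sets thus lay below the background.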
